A study of Mus musculus with 16 samples.

Results

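The genes described are 7 dual-specificity MAPK phosphatases, Dusp1, Dusp2, Dusp4, Dusp5, Dusp6, Dusp10 and Dusp16, which were listed by name and all measured among the 22180 genes of the array table. They were followed in ILC2s, the group 2 innate lymphoid cells that reside in tissue and release type 2 cytokines, from mice labelled C57BL/6J for the lung arrays and without a strain label for the lymph node arrays. The groups were mediastinal lymph node (mLN) ILC2s at day 4 (n = 3 arrays) and week 2 (n = 3) after intranasal IL-33, and lung ILC2s that were naive (n = 2) or taken at day 4 (n = 3), week 2 (n = 3) or 4 months (n = 2) after IL-33. All 16 arrays were labelled as biological replicates. The mLN, which drains the lung, has no naive group, and no source used here gives the age or sex of the mice, the number of mice behind an array or the sort gate. A gene's level is its log2 RMA signal, where RMA is the usual background correction, quantile normalization and probe summary of Affymetrix arrays, so that 1 unit is a factor of 2. Levels are compared between groups of arrays for the same gene and not between genes.

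MAP kinases (ERK, p38 and JNK) become active when both a threonine and a tyrosine of their activation loop are phosphorylated, and the dual-specificity phosphatases remove both phosphates. Many of these phosphatase genes are themselves switched on by the kinases they oppose, which makes them feedback brakes and, at the RNA level, commonly used readouts of recent signalling. Dusp1, Dusp2, Dusp4 and Dusp5 encode nuclear enzymes: Dusp1 acts on p38, JNK and ERK, Dusp2 (PAC-1) was described in activated lymphocytes, Dusp4 acts mainly on ERK and JNK, and Dusp5 is selective for ERK. Dusp6 encodes a cytoplasmic ERK phosphatase, and Dusp10 and Dusp16 encode phosphatases of p38 and JNK. IL-33 signals through MyD88 to NF-kB and the MAP kinases in ILC2s.

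The promoters of 4 of the genes are shown because Dusp1, Dusp5 and Dusp10 varied together across the arrays and Dusp2 was called in all 3 contrasts with naive cells. Each line gives the 250 bases upstream of the RefSeq start in GRCm38.p6, with matches to the motifs searched in capitals: the cyclic AMP response element TGACGTCA (CRE), the AP-1 site TGANTCA, the E-box CACGTG, the CArG box bound by serum response factor and the NF-kB site, on both strands. The intervals are chr17:26508473-26508722, minus strand, for Dusp1, chr19:53528895-53529144, plus strand, for Dusp5, chr1:184034131-184034380, plus strand, for Dusp10 and chr2:127335909-127336158, plus strand, for Dusp2.
Dusp1: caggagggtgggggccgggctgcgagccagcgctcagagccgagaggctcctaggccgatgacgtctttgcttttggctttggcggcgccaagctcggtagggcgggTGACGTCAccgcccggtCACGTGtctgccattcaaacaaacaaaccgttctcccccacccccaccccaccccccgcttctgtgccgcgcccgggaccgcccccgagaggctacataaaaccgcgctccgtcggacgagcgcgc
Dusp5: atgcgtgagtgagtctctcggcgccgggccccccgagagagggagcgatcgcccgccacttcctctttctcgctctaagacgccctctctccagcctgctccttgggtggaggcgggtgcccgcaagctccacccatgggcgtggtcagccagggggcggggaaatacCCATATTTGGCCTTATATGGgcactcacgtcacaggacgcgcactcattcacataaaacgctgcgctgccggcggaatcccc
Dusp10: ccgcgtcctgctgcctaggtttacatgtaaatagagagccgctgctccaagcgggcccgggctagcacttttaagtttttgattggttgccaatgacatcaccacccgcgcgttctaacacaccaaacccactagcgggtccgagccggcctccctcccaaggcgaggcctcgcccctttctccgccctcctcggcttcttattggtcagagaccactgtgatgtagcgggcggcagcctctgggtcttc
Dusp2: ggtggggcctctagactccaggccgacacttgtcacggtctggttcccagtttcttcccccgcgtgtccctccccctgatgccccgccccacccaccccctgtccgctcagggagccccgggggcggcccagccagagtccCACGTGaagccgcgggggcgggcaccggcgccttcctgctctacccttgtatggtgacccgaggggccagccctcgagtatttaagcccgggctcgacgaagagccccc
The Dusp1 window held a CRE 143 to 136 bases before the start and an E-box 126 to 121 bases before it. The Dusp5 window held 2 adjacent CArG boxes, CCATATTTGG and CCTTATATGG, 82 to 63 bases before the start, and the Dusp2 window held an E-box 109 to 104 bases before it. None of these matches overlap. The windows of Dusp10, Dusp6 and Dusp16 held none of the 5 motifs, and Dusp4 has no entry in the promoter table. The Dusp16 window, chr6:134792629-134792878 on the minus strand, lies inside the annotated gene, which reaches to 134807063. It therefore precedes a start within the gene, and the region upstream of the whole annotated gene was not searched. Among 32851 RefSeq promoter windows of the same length, 1.55% held the CRE, 6.75% the AP-1 site, 6.02% the E-box, 1.47% the CArG box and 7.25% the NF-kB site. A match of letters does not show that a factor binds there.

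Array quality bears on the contrasts with naive and 4-month cells. The interquartile range of log2 signal was 2.39 and 2.45 for the naive replicates and 2.05 and 2.47 at 4 months, against 2.85 to 3.07 on the 12 arrays of the other groups. Replicates correlated at r = 0.937 in the naive and 0.947 in the 4-month group over genes and at 0.977 or more in the rest. Counts of calls that use these groups are therefore also given with array weights, a limma option that lowers the influence of noisy arrays. The 12 genes listed as defining ILC2s, among them Gata3, Id2 and Il7r, averaged 8.96 to 9.66 on every array. Of the other markers, T cell genes and some NK cell genes stood out on the naive arrays and macrophage genes on week 2 lung replicate 3 and on replicates 1 and 2 of day 4 lung, and their values are given beside the results they move with. In sorted bulk samples, fewer cells of a type and less RNA per cell cannot be told apart.

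Over 9 comparisons of the 7 genes, 5 of 63 tests passed a limma adjusted p under 0.05, and they fell on Dusp2 and Dusp4. At day 4 in the lung, Dusp4 rose and Dusp2 fell against naive lung, so that 2 of 7 genes were called where 16.6% of all genes were. At week 2 and at 4 months Dusp2 alone fell against naive lung, beside 9.62% and 1.97% of all genes called. At day 4 Dusp4 was lower in the mLN than in the lung, 1 of 7 genes beside 2.33% of all. From day 4 to week 2 the tests called 0 of 7 in the lung and 0 of 7 in the mLN (1.81% and 1.71% of all genes). Between 4 months and week 2 in the lung (16.4%), between mLN and lung at week 2 (0.780%) and for the difference in time course between tissues (0.180%) the count was also 0 of 7. The unadjusted p of limma was under 0.05 for 5 of 7 genes at day 4 against naive lung (31.5% of all genes), 1 at week 2 (25.7%) and 2 at 4 months (17.0%). It was so for 2 from day 4 to week 2 in the lung (11.7%), 3 in the mLN (9.04%), 3 between tissues at day 4 (10.5%), 1 at week 2 (9.55%), 1 for the difference in time course (6.38%) and 0 between 4 months and week 2 (33.1%). With array weights 6 tests passed: Dusp2 at day 4 and at week 2 against naive lung (7.34% and 3.28% of all genes called), Dusp1 from day 4 to week 2 in the lung (6.35%) and in the mLN (2.84%), Dusp4 between tissues at day 4 (4.23%) and Dusp16 between tissues at week 2 (3.12%). None passed between 4 months and week 2 (5.39%) or for the difference in time course (0.924%) with weights.

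The values of the groups were apart, without overlap, for 3 of 7 genes at day 4 against naive lung, 5 at week 2 and 5 at 4 months, beside 44.5%, 42.4% and 34.6% of all genes. They were apart for 4 genes from day 4 to week 2 in the lung (23.8%), 3 in the mLN (16.2%), 3 between tissues at day 4 (18.6%) and 2 at week 2 (19.9%). Between 4 months and week 2 in the lung the values of all 7 genes overlapped, while 48.6% of all genes were apart.

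**Figure D1:**
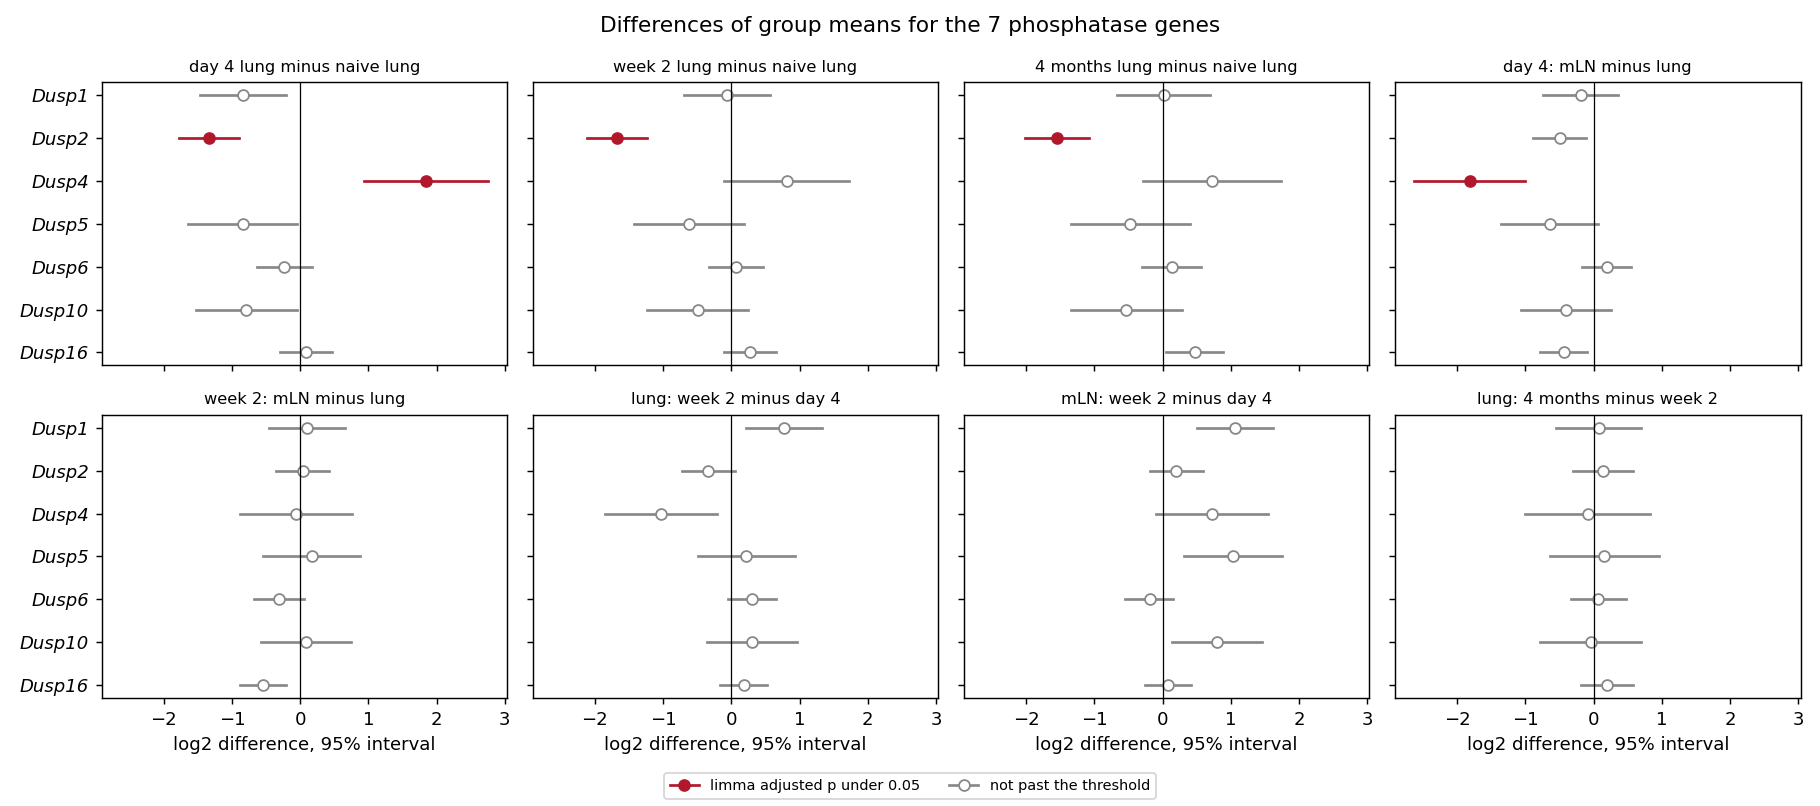
Differences of group means (log2, x axis) for the 7 genes in 8 comparisons, named above each panel as minuend minus subtrahend, with 95% intervals from the limma fit of all 16 arrays. Filled red points passed an adjusted p under 0.05: Dusp2 in the 3 contrasts with naive lung, Dusp4 at day 4 against naive lung and, with the opposite sign, for mLN minus lung at day 4.

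Dusp2 was lower in lung ILC2s at every time after IL-33 than in naive lung ILC2s. Its signal was 5.84, 5.94 and 6.11 at day 4, 5.44, 5.75 and 5.69 at week 2 and 5.90 and 5.61 at 4 months, against 7.05 and 7.55 on the naive arrays. In the mLN it was 5.23, 5.55 and 5.62 at day 4 and 5.49, 5.64 and 5.86 at week 2. The naive arrays were the highest of all, and the other 14 lay within 5.23 to 6.11. Dusp2 fell by 1.34 ± 0.21 on the log2 scale at day 4 (SE, limma adjusted p = 4.50e-04), 2.53-fold lower than in naive cells. It fell by 1.68 ± 0.21 at week 2 (adjusted p = 1.96e-04), 3.19-fold lower. At 4 months it fell by 1.55 ± 0.23 (adjusted p = 0.00350), 2.92-fold lower. With array weights the first and second of these passed (adjusted p = 0.00434 and 0.00234) and the 4-month difference did not (adjusted p = 0.195, beside 0.0180% of all genes called with weights). When the naive and 4-month groups were fitted without the others, its adjusted p was 0.621. At day 4 the call was lost without the lung arrays that had high macrophage signal, day 4 replicates 1 and 2 and week 2 replicate 3 (-1.19 ± 0.31, limma adjusted p = 0.0522), with the 1 remaining day 4 lung array assumed to vary like the other groups.

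T cell markers moved with Dusp2. The 10 measured T cell markers had a mean log2 signal of 5.08 to 5.55 on the 14 arrays after IL-33, against 6.82 and 6.64 in naive cells. Of these markers, 6 fell and 0 rose at day 4, 5 fell and 0 rose at week 2, and 4 fell and 0 rose at 4 months (4, 4 and 2 fell with array weights). Of all genes, 16.6%, 9.62% and 1.97% were called in these contrasts (7.34%, 3.28% and 0.0180% with array weights). Cd3e, a chain of the T cell receptor complex, averaged 6.01 ± 0.32 at day 4 (SD, n = 3), against 9.18 ± 0.27 in naive cells (SD, n = 2). Cd3g, another chain of that complex, named after its values were seen, averaged 8.98 ± 0.07 at day 4 and 8.69 ± 0.51 in naive cells. Over all 16 arrays, Cd3e (Pearson r = 0.926), Cd8b1 (0.902), a chain of the CD8 coreceptor, and Arf3 (0.898), a small GTPase of the Golgi, had the pattern most like that of Dusp2. Without the 2 naive arrays these values were 0.395, -0.035 and 0.727 over 14 arrays, so the likeness to the T cell genes rested on the naive arrays. Of 7 measured NK cell markers, 3 fell and 0 rose at day 4, 1 fell at week 2 and 1 at 4 months (1, 1 and 0 with array weights), beside the same shares of all genes as above. Their mean was 3.57 to 3.86 at day 4, 3.71 to 4.16 at week 2 and 4.29 to 4.92 at 4 months, against 4.68 to 4.78 in naive lung. Klrd1, an NK cell receptor chain that T cells can also express, averaged 2.88 ± 0.15 at day 4, 3.22 ± 0.65 at week 2 and 3.95 ± 1.06 at 4 months, against 7.22 ± 0.18 in naive lung (SD). It fell by 4.35 ± 0.38, 4.00 ± 0.38 and 3.27 ± 0.42 in these contrasts (SE). Ncr1, an activating receptor of NK cells, named after its values were seen, averaged 3.59 ± 0.21 at day 4 and 3.67 ± 0.46 in naive lung. The part of T cells or NK cells in the difference of Dusp2 was not tested.

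**Figure D2:**
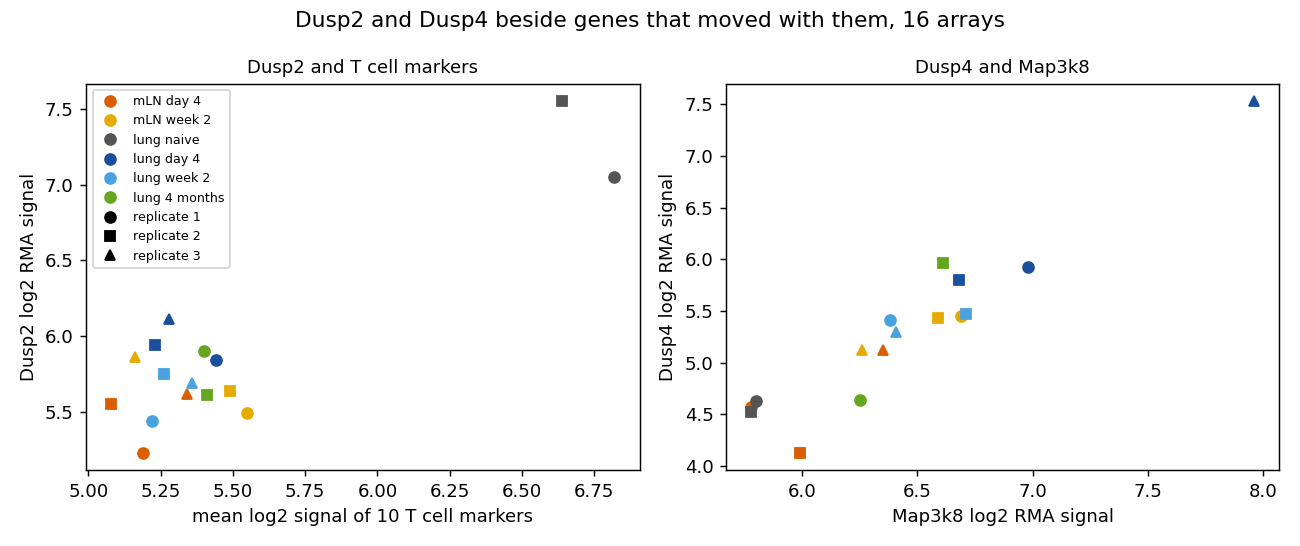
Each point is 1 of the 16 arrays, coloured by group and shaped by replicate. Left, Dusp2 against the mean log2 signal of 10 T cell markers: the 2 naive arrays sit apart at 7.05 and 7.55 for Dusp2, above the range of 5.23 to 6.11 of the other 14. Right, Dusp4 against Map3k8, both in log2 RMA signal: the points run together from the naive arrays at 4.63 and 4.52 for Dusp4 to day 4 lung replicate 3 at 7.53.

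Dusp4 was highest in day 4 lung ILC2s. Its signal was 5.93, 5.80 and 7.53 at day 4 in the lung, against 4.63 and 4.52 in naive lung. At week 2 in the lung it was 5.41, 5.47 and 5.30, and at 4 months 4.64 and 5.96, so that the 4-month arrays spanned nearly the whole distance between the naive and the day 4 values. Dusp4 rose by 1.85 ± 0.43 at day 4 (limma adjusted p = 0.00852), 3.60-fold higher than in naive cells. The call was lost with array weights (adjusted p = 0.0680) and when the other groups were left out of the fit (adjusted p = 0.0663). Replicate 3 set much of the size, since the difference ranged from 1.29 to 2.16 when single arrays of either group were left out, with the lowest value without that replicate. Against naive lung, Dusp4 differed by 0.82 ± 0.43 at week 2 (adjusted p = 0.249) and by 0.72 ± 0.47 at 4 months (adjusted p = 0.470).

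At day 4 Dusp4 was lower in the mLN, at 4.57, 4.13 and 5.12, than in the lung, at 5.93, 5.80 and 7.53, and the groups did not overlap. The difference was -1.82 ± 0.39 (limma adjusted p = 0.0159), 3.52-fold, and it passed with array weights (adjusted p = 0.00462). The call was lost without day 4 lung replicate 3 (-1.26 ± 0.32, adjusted p = 0.0542), without day 4 mLN replicate 1 (-1.79 ± 0.45, adjusted p = 0.0629) or replicate 2 (-1.58 ± 0.43, adjusted p = 0.106), and when the other groups were left out of the fit (adjusted p = 0.0757). At week 2 the tissues overlapped, with 5.45, 5.43 and 5.12 in the mLN and 5.41, 5.47 and 5.30 in the lung, and the difference was -0.06 ± 0.39 with a 95% interval of -0.88 to 0.76. From day 4 to week 2 Dusp4 differed by 0.72 ± 0.39 in the mLN and by -1.03 ± 0.39 in the lung, and the difference between these time courses, 1.76 ± 0.55, did not pass (adjusted p = 0.362).

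Macrophage markers varied within the day 4 lung group that carried the Dusp4 call. The mean of 15 macrophage markers was 5.67, 5.72 and 4.33 on day 4 lung replicates 1, 2 and 3, so the array highest in Dusp4 was the lowest in these markers. Of the 15, 3 rose and 0 fell in the lung at day 4 against naive cells (0 rose with array weights), and 3 were lower in the mLN than in the lung at day 4 (7 with array weights). Of all genes, 16.6% and 2.33% were called in these comparisons (7.34% and 4.23% with array weights). Without week 2 lung replicate 3 and replicates 1 and 2 of day 4 lung, the difference of Dusp4 from naive lung was 2.96. That of day 4 mLN minus lung was -2.93. This choice keeps replicate 3, the array highest in Dusp4, as the only day 4 lung array. The larger differences therefore followed from the arrays kept, and the part of macrophages in the Dusp4 difference was not tested. Map3k8, the kinase Tpl2 that activates the ERK cascade, had the pattern most like that of Dusp4 (r = 0.951 over 16 arrays), followed by Tnfsf11, which encodes RANK ligand (0.927), and Litaf (0.887). Without the 2 arrays farthest from the median of Map3k8 its r was 0.884. Map3k8 itself rose by 1.41 ± 0.29 at day 4 against naive lung (limma adjusted p = 0.00407, or 0.0554 with array weights) and was lower in the mLN than in the lung at day 4, with a difference of -1.16 ± 0.26 (adjusted p = 0.0237).

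Dusp1, Dusp5 and Dusp10 shared a pattern in which 4 of the 6 day 4 arrays were the lowest of all. For Dusp1 these were 8.28 and 8.51 on mLN replicates 1 and 2 and 8.35 and 8.75 on lung replicates 1 and 2. Replicate 3 of each tissue was higher, at 9.24 in the mLN and 9.51 in the lung. At week 2 Dusp1 was 9.64, 9.59 and 9.98 in the mLN and 9.59, 9.69 and 9.63 in the lung, close to 9.79 and 9.61 in naive lung and 9.67 and 9.76 at 4 months. Dusp5 was 6.03, 5.81 and 7.03 at day 4 in the mLN and 6.41, 6.53 and 7.85 in the lung, against 7.76 and 7.79 in naive lung. Dusp10 was 5.47, 5.60 and 6.22 at day 4 in the mLN and 5.65, 5.78 and 7.09 in the lung, against 7.27 and 6.65 in naive lung. For each of these genes the day 4 lung group had an SD of 0.59 or more, while at week 2 in the lung the SD was 0.05 for Dusp1, 0.12 for Dusp5 and 0.06 for Dusp10 (n = 3 each).

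**Figure D3:**
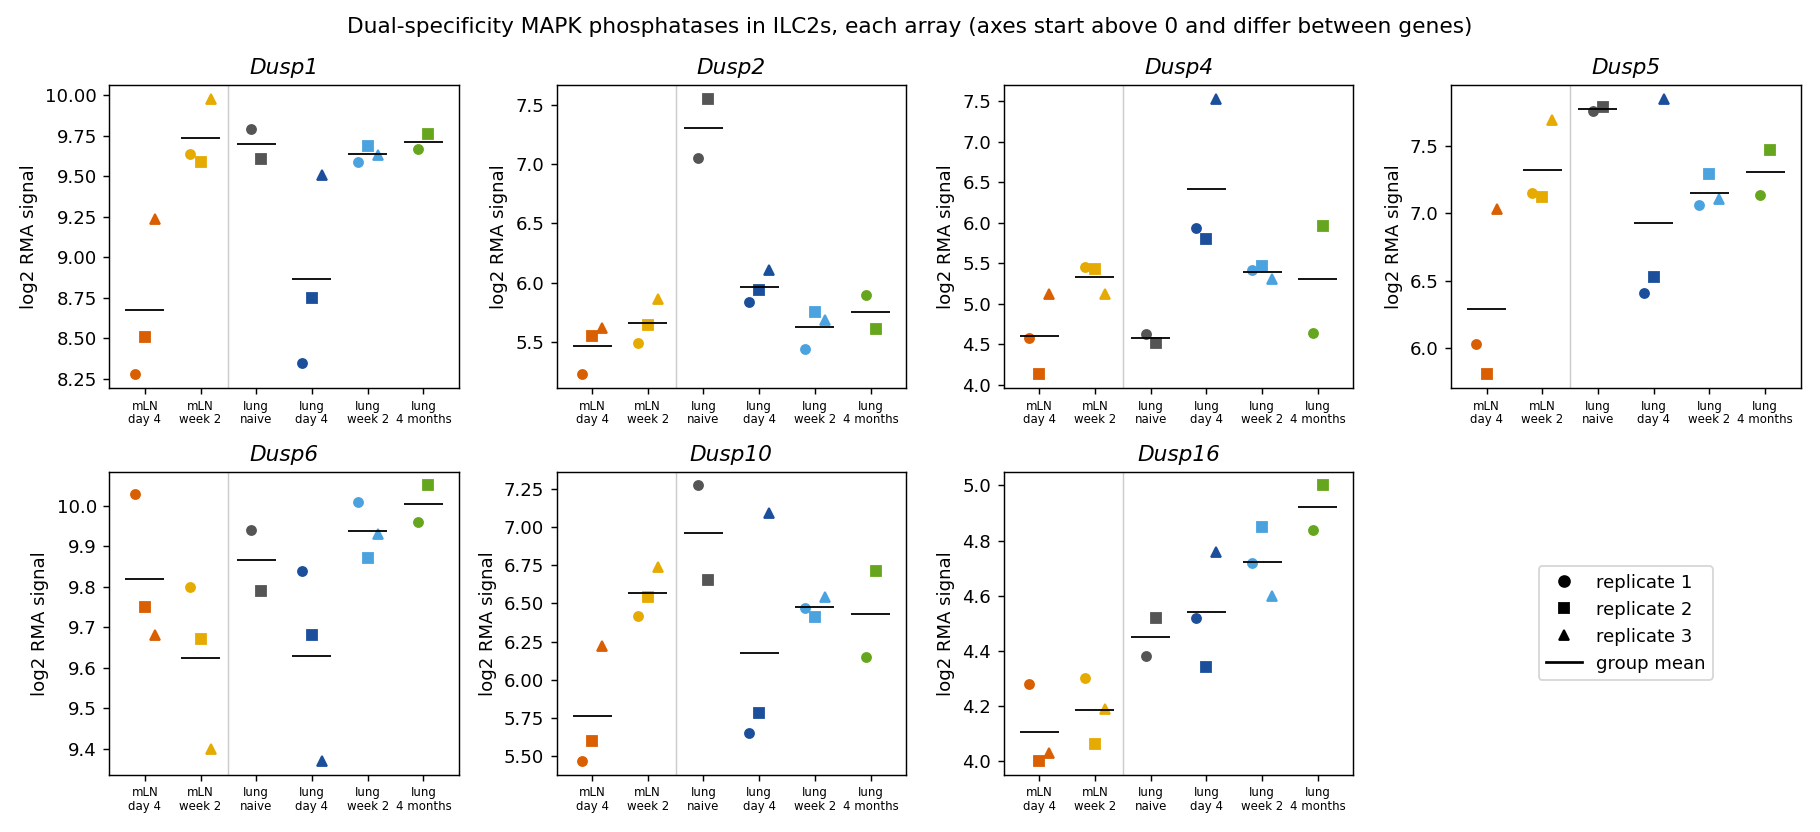
Log2 RMA signal of each gene on each array, by group, with replicates marked by shape and group means as lines. The axes start above 0 and differ between panels. The naive arrays stand above the rest for Dusp2 (7.05 and 7.55), day 4 lung replicate 3 for Dusp4 (7.53), and the day 4 arrays of replicates 1 and 2 are lowest for Dusp1, Dusp5 and Dusp10.

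In the fit of all arrays as deposited, none of the 3 genes passed the test against naive lung at day 4. Dusp1 differed by -0.83 ± 0.30 (limma adjusted p = 0.0649), Dusp5 by -0.84 ± 0.38 (adjusted p = 0.137) and Dusp10 by -0.79 ± 0.35 (adjusted p = 0.133). Leaving out day 4 lung replicate 3 brought all 3 past the threshold, at -1.15 ± 0.27 for Dusp1, -1.30 ± 0.32 for Dusp5 and -1.25 ± 0.27 for Dusp10 (adjusted p = 0.0105, 0.0131 and 0.00728). All 3 were also called lower with the replicate number as a block (limma adjusted p = 0.0100, 0.0176 and 0.0334), although the numbers were not taken as pairs. Repeated quantile normalization called all 3 lower as well (limma adjusted p = 0.0316, 0.0448 and 0.0448). With that array as the only day 4 lung array, and without week 2 lung replicate 3, the differences were -0.19 ± 0.35 for Dusp1, 0.08 ± 0.42 for Dusp5 and 0.13 ± 0.36 for Dusp10. At week 2 and 4 months the differences from naive lung did not pass: -0.06 and 0.02 for Dusp1, -0.62 and -0.47 for Dusp5, and -0.49 and -0.53 for Dusp10.

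From day 4 to week 2, Dusp1 was the gene nearest to a call. In the mLN it averaged 9.74 ± 0.21 at week 2 and 8.68 ± 0.50 at day 4 (SD, n = 3 each), without overlap, a difference of 1.06 ± 0.26 whose limma adjusted p of 0.0549 missed the threshold. It passed with array weights (1.07 ± 0.24, adjusted p = 0.0185) and without day 4 mLN replicate 3 (1.34 ± 0.26, adjusted p = 0.0103). In the lung the difference was 0.77 ± 0.26 (adjusted p = 0.210), and it passed with array weights (0.87 ± 0.22, adjusted p = 0.0238) and without day 4 lung replicate 3 (1.09 ± 0.25, adjusted p = 0.0284). Dusp5 differed by 1.03 ± 0.34 in the mLN (adjusted p = 0.211; 1.40 ± 0.33 and adjusted p = 0.0419 without day 4 mLN replicate 3) and by 0.22 ± 0.34 in the lung, and Dusp10 by 0.80 ± 0.31 and 0.30 ± 0.31. In the mLN the week 2 values of all 3 genes lay above the day 4 values without overlap.

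Early response genes moved with these genes. Over the 16 arrays the closest pattern to Dusp1 was that of Fosb, an AP-1 subunit gene of the immediate early response (r = 0.972, and 0.954 without the 2 arrays farthest from its median), then Rab26os (0.942) and Ppp1r15a, a stress-induced phosphatase subunit (0.929). Nfkbiz, a regulator of NF-kB target genes, was closest to Dusp5 (0.904). The nuclear receptor Nr4a2 was next for Dusp5 (0.898) and first for Dusp10 (0.900), and the transcription factor Zeb1 had 0.881 with both. The third gene for Dusp10 was the immediate early gene Ier2 (0.854). Among themselves, Dusp1, Dusp5 and Dusp10 correlated at 0.86 to 0.94 over the 16 arrays and at 0.88 to 0.94 after each group's mean was subtracted. Dusp4 correlated with these genes, in that order, at 0.12, 0.33 and 0.31 over the 16 arrays. After the group means were subtracted, its values were 0.68, 0.80 and 0.85. Those of Dusp6, on the higher-mean of its 2 probe sets, were -0.81, -0.74 and -0.62. On that probe set replicate 3 was the lowest day 4 lung (9.37), day 4 mLN (9.68) and week 2 mLN (9.40) array. On the other it was the highest day 4 lung (8.96) and week 2 mLN (8.86) array and the lowest day 4 mLN array (8.16). Correlations with the other probe set were not computed. All these correlations are descriptions of arrays that share groups and normalization.

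The list of 16 early response and heat shock genes, many of which are known to be induced when tissue is dissociated, showed the same arrays. Its mean was 8.16, 8.21 and 8.79 on day 4 mLN replicates 1, 2 and 3 and 8.14, 7.93 and 8.84 on the day 4 lung replicates. At week 2 it was 9.33 to 9.81 in the mLN and 9.10 to 9.25 in the lung. It was 8.81 and 8.86 in naive lung and 8.59 and 8.98 at 4 months, near replicate 3 of the day 4 groups. From day 4 to week 2 in the mLN, 8 of the 16 rose and 0 fell, with a median difference of 1.15, while that of all genes was within 0.01 of 0 (11 rose with array weights). Those with the largest rises were Atf3 (2.46 ± 0.47), a stress-induced transcription factor, Egr1 (2.20 ± 0.32) and Nr4a1 (2.10 ± 0.45), both immediate early transcription factors. In the lung 3 rose and 1 fell (10 and 1 with array weights), with Hspa1b, an inducible heat shock protein, at 2.07 ± 0.33, Egr1 at 1.36 ± 0.32 and Jun at 1.21 ± 0.27. Between mLN and lung at day 4, 2 of the 16 were higher and 4 lower, with a median difference of -0.24. Hspa1b and Hspa1a were higher in the mLN, by 4.97 ± 0.33 and 4.57 ± 0.49, and Nr4a1 was lower there, at -2.25 ± 0.45. Of all genes, 1.71% were called from day 4 to week 2 in the mLN, 1.81% in the lung and 2.33% between tissues at day 4. With array weights these shares were 2.84%, 6.35% and 4.23%. Day 4 lung replicate 3, which set much of the size of the Dusp4 difference from naive lung, was the day 4 lung array highest in the list of 16. Whether sample handling had a part in the pattern of Dusp1, Dusp5 and Dusp10, or in that of Dusp4, was not tested.

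**Figure D4:**
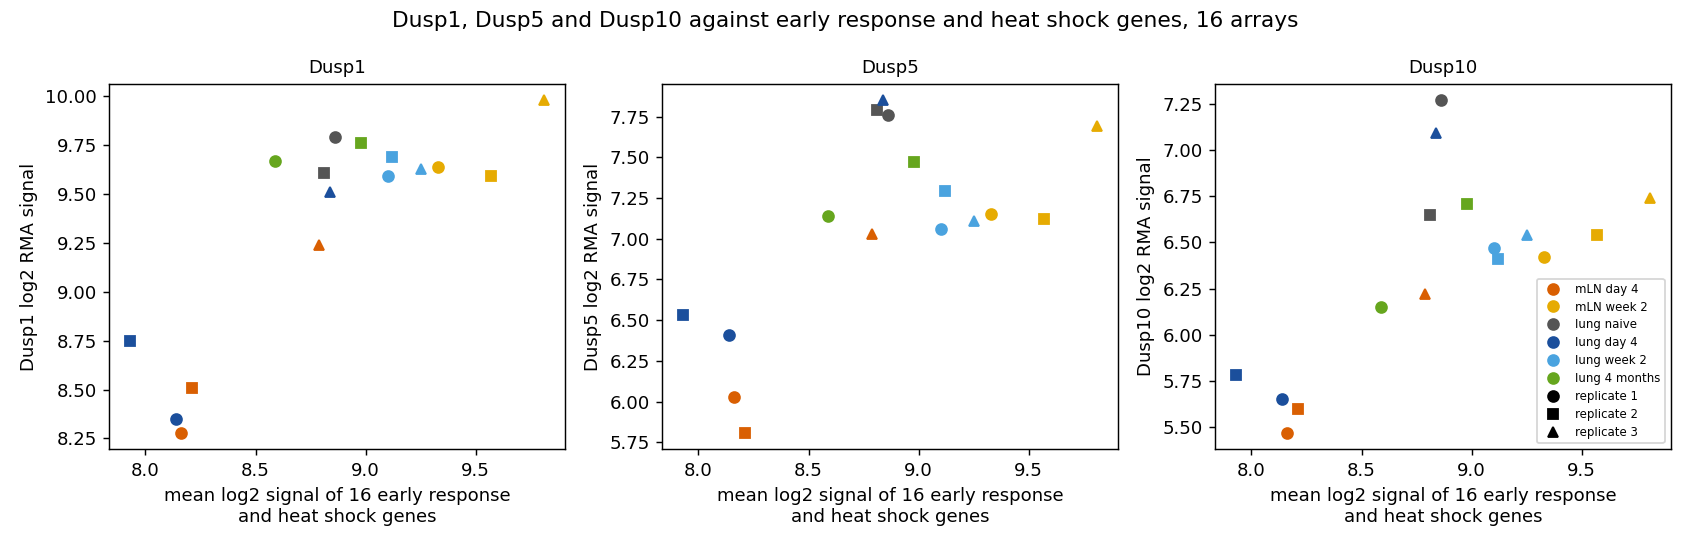
Log2 RMA signal of Dusp1, Dusp5 and Dusp10 against the mean log2 signal of 16 early response and heat shock genes, 1 point per array, coloured by group and shaped by replicate. The 4 arrays of day 4 replicates 1 and 2 form the low corner in each panel, with list means of 7.93 to 8.21, and replicate 3 of both tissues sits higher, at 8.79 in the mLN and 8.84 in the lung.

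Dusp6 was measured by 2 probe sets that disagreed between tissues. On the probe set with the higher mean, which was used in all counts above, Dusp6 varied little: its group means spanned 0.38, with a smaller range in 11.8% of all genes. It averaged 9.62 ± 0.20 in the mLN and 9.94 ± 0.07 in the lung at week 2 (SD, n = 3 each), and 9.63 ± 0.24 at day 4 against 9.87 ± 0.11 in naive lung (n = 3 and 2). The largest in size of its 8 differences between groups, -0.31 ± 0.17 for mLN minus lung at week 2, did not pass (limma adjusted p = 0.607, 95% interval -0.67 to 0.05), although the values were apart. On the second probe set the week 2 values were 7.90, 8.10 and 8.86 in the mLN, against 9.35, 9.50 and 9.37 in the lung, and all 3 mLN arrays lay below the lung arrays. This difference, examined after its values were seen, was -1.12 ± 0.22 (limma adjusted p = 0.0218), 2.17-fold lower in the mLN. The second probe set also stood at 8.79, 8.49 and 8.96 on the day 4 lung arrays, against 9.45 and 9.39 on the naive arrays, a difference of -0.67 ± 0.25 (adjusted p = 0.0762). The 2 probe sets correlated at r = 0.41 over 16 arrays. Which transcript regions they cover is not given in the sources used here.

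**Figure D5:**
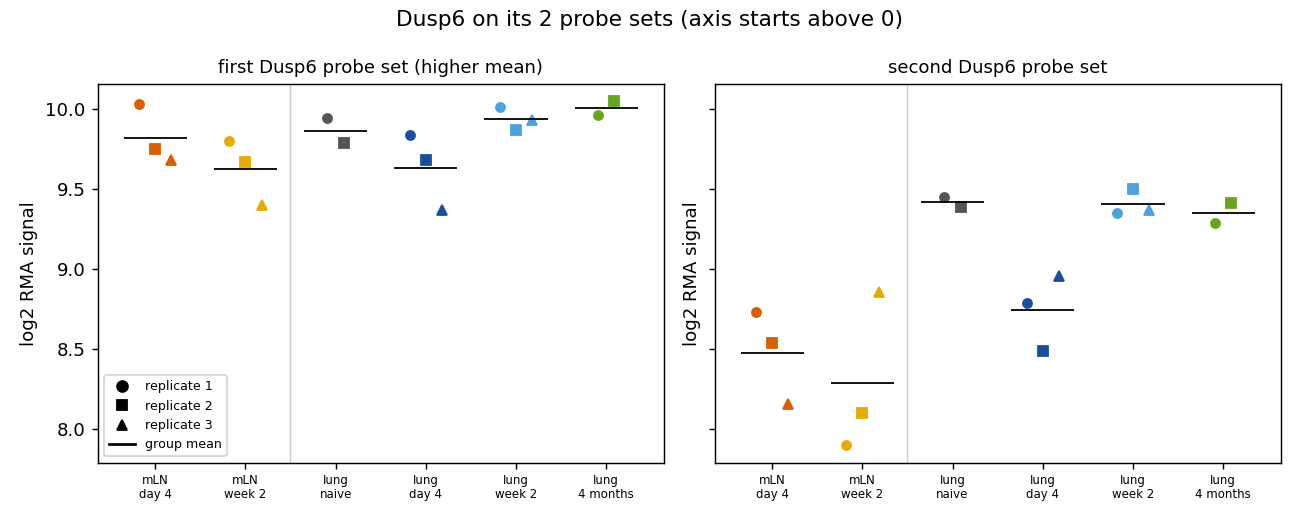
Log2 RMA signal of Dusp6 on each array for its 2 probe sets, by group, with replicates by shape and group means as lines. On the first all arrays lie between 9.37 (day 4 lung replicate 3) and 10.05 (a 4-month lung array). On the second the means of the mLN groups are 8.48 at day 4 and 8.29 at week 2, below the lung means of 8.75 at day 4 and 9.41 at week 2.

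Dusp16 had lower values in the mLN than in the lung at both times, without passing the test at either. At day 4 it was 4.28, 4.00 and 4.03 in the mLN, against 4.52, 4.34 and 4.76 in the lung. At week 2 it was 4.30, 4.06 and 4.19 in the mLN, against 4.72, 4.85 and 4.60 in the lung, and in both cases the tissues did not overlap. The differences were -0.44 ± 0.16 at day 4 (limma adjusted p = 0.262) and -0.54 ± 0.16 at week 2 (adjusted p = 0.188). With array weights the week 2 difference passed (adjusted p = 0.0416). In the lung the means were 4.45 ± 0.10 in naive cells (n = 2), 4.54 ± 0.21 at day 4 (n = 3), 4.72 ± 0.13 at week 2 (n = 3) and 4.92 ± 0.12 at 4 months (SD, n = 2), and the 4-month difference from naive of 0.47 ± 0.20 did not pass (adjusted p = 0.234). The closest patterns were those of the early response factor Egr3 (r = 0.888), Ramp3, a receptor accessory protein (0.872), and Zcchc14 (0.871). For Dusp6 they were Fgfr3 (0.797), a fibroblast growth factor receptor, Tspan18 (0.791) and Bgn (0.761), the matrix proteoglycan biglycan. Without the 2 arrays farthest from each gene's median these values were 0.535, 0.413 and 0.727. The Dusp6 partners were sought with its higher-mean probe set. Fgfr3 ran from 3.27 to 4.38 and Tspan18 from 2.47 to 3.83, around the limit of 3.73 used in the filter on dim genes.

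Ordered by group mean, few neighbouring groups were apart. For Dusp2 the step from naive lung to day 4 lung, 1.33, was the only one between neighbours without overlap. For Dusp4 it was the step from day 4 lung to week 2 lung (1.03), and for Dusp1 that from week 2 lung to day 4 lung (0.77), with mLN at week 2, 4-month, naive and week 2 lung overlapping at the top and the day 4 groups at the bottom. For Dusp5 naive lung stood above week 2 mLN by 0.45, and for Dusp16 naive lung stood above week 2 mLN by 0.27. For Dusp6 and Dusp10 all neighbours overlapped, with 4-month lung highest and week 2 mLN lowest for Dusp6, and naive lung highest and day 4 mLN lowest for Dusp10. The ranges of group means of Dusp2 (1.83) and Dusp4 (1.84) exceeded those of 96.1% and 96.2% of genes, and those of Dusp5, Dusp10, Dusp1 and Dusp16 were 1.48, 1.20, 1.06 and 0.82, beside a median of 0.70 over all genes.

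The kinases that these phosphatases oppose, and the kinases around them, were measured on the same arrays. In the p38 cascade, 4 of 14 measured genes rose against naive lung at day 4 and 1 fell, with a median difference of 0.44 beside -0.06 over all genes. At week 2, 6 rose and 0 fell (median 0.67, all genes -0.04). The shares of all genes called were 16.6% at day 4 and 9.62% at week 2. With array weights 4 rose and 1 fell at day 4, and 2 rose at week 2, where 7.34% and 3.28% of all genes were called. Mapkapk2, the kinase that carries p38 signals to cytokine mRNAs, rose by 1.63 ± 0.20 at day 4 and 1.41 ± 0.20 at week 2, and Map2k3, which activates p38, by 1.65 ± 0.27 and 0.93 ± 0.27. Mapk12, a p38 isoform, fell by 1.55 ± 0.33 at day 4. Of 15 measured ERK cascade genes, 1 rose (Map3k8) and 1 fell (Rasgrp2, a Ras and Rap activator, by 1.11 ± 0.33) at day 4, and 1 rose and 1 fell at week 2, where Rasgrp2 fell by 1.76 ± 0.33. With array weights no ERK cascade gene passed at day 4 and only Rasgrp2 did at week 2. Of 11 JNK cascade genes, 3 rose at day 4, among them Map4k1 (1.10 ± 0.19), and 2 rose at week 2 (1 and 0 with array weights). The shares of the lists were not tested against each other. JNK list means were 5.89 to 6.05 in naive and 5.68 to 6.06 in 4-month lung, the groups of narrower signal range. They were 6.38 to 6.44 at day 4 and 6.41 to 6.44 at week 2 in the lung. For the p38 list the means were 6.08 to 6.09 and 5.69 to 6.34, against 6.44 to 6.55 and 6.54 to 6.62. The part of signal range in the rises against naive lung was not tested. At 4 months against week 2 in the lung, 6 p38, 5 ERK and 3 JNK cascade genes fell and 1 p38 cascade gene rose, where 16.4% of all genes were called, beside the narrower signal range of the 4-month arrays. Mapkapk2 fell by 1.14 ± 0.20 there. With array weights 5, 2 and 1 fell, where 5.39% of all genes were called.

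Other feedback and response genes of the ERK pathway went in both directions. Of 13 other feedback inhibitors, 3 rose at day 4 against naive lung, among them Spred2, an inhibitor of Raf activation, by 1.08 ± 0.22, where 16.6% of all genes were called. At week 2, 2 rose and Spry4, a Sprouty inhibitor, fell by 1.13 ± 0.27, where 9.62% were called. With array weights 1 rose at day 4 and 1 at week 2, and Spry4 did not pass (limma adjusted p = 0.0507). Spry4 averaged 4.02 in naive and 3.72 in 4-month lung, the groups of narrower signal range, and 3.25 at day 4 and 2.89 at week 2. These levels lie around the limit of 3.73 used in the filter on dim genes, and the part of signal range was not tested. Of 13 measured ERK response genes, Egr2 (1.83 ± 0.23) and Ier3 (1.52 ± 0.23) rose at day 4, when Dusp4 rose as well, and both passed with array weights. Between mLN and lung at day 4, where Dusp4 was lower, 5 of the 13 were lower and 0 higher, beside 2.33% of all genes called. Egr2 was at -2.76 ± 0.21, Fosl2 at -2.19 ± 0.35 and Egr3 at -1.84 ± 0.38. At week 2 between tissues 0 of the 13 passed (limma, while 2 were lower with array weights). From day 4 to week 2 in the mLN, 4 of the 13 rose and 0 fell (6 and 0 with array weights), beside 1.71% of all genes called (2.84%). In the lung 2 rose and 2 fell (5 and 2 with array weights), beside 1.81% (6.35%). Egr2 was also the 1 response gene that passed for the difference in time course between tissues, at 2.34 ± 0.29 (limma adjusted p = 0.00251). Of the 3 remaining typical MAPK phosphatases, Dusp7, Dusp8 and Dusp9, 0 passed in any of the 9 comparisons by limma with or without array weights.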

How the data were processed

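The authors deposited 1 log2 signal for each probe set on each array. Per the submitters' processing notes it was made with RMA in Affymetrix Expression Console, whose version, like the genome build, no source used here gives. RMA includes quantile normalization, but the deposited gene values still differed in spread between arrays. A difference in total RNA per cell cannot be read from such values, and detection over background could not be assessed. Of 41345 probe sets, 23521 had 1 gene symbol. The highest-mean probe set stood for each of 22180 genes, and among the 7 phosphatases only Dusp6 had 2 probe sets.

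Group means were fitted to all 16 arrays with limma 3.58.1 in R 4.3.3, without trend, robust option, filter or block (10 residual and 6.52 prior degrees of freedom). Tests were two-sided, and a call needed a p under 0.05 after Benjamini-Hochberg adjustment over all genes. Errors of differences are limma's moderated SE. The procedure was tested on simulated data. The number of arrays limits the precision of every value, and p-values measure the spread between arrays.

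The members and lists were chosen with earlier results of these data known. Named genes were all members, the 3 genes most correlated with each (of 11433 named genes with an SD of at least 0.3) and up to 3 called genes per list and comparison with the largest change. Alternatives were array weights, centring of array medians, repeated quantile normalization, a filter on dim genes (highest group mean under 3.73, the 40th percentile), trend and robust options, only the groups compared, the mean of probe sets, a replicate block, leaving out the arrays high in macrophage transcripts and leaving out each array. The second Dusp6 probe set was added after seeing the data. Same-numbered replicates were checked for pairing: their deviations from the group means correlated at -0.104 to 0.184 over genes, so the numbers were not taken as pairs. Between mLN and lung these values were 0.092, 0.028 and 0.184 at day 4 and 0.028, 0.012 and 0.019 at week 2. A pairing between tissues was not excluded. Promoters came from RefSeq (GRCm38.p6), with 6 of 7 genes matched. Motifs were searched and figures drawn with Python 3.11.15 and matplotlib 3.10.9.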

Additional observations from a re-analysis of the deposited data

How the results depend on the processing

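For day 4 against naive lung, 2 of 7 genes were called. The count was 1 under array weights and when only the groups compared were fitted. Week 2 lung replicate 3 and replicates 1 and 2 of day 4 lung, the arrays with most macrophage signal, were also left out together. The differences were then -1.19 for Dusp2 and 2.96 for Dusp4. That fit rests on replicate 3 as the only day 4 lung array, the highest of all in Dusp4. The count was 5 with repeated quantile normalization and with the replicate block, where Dusp1, Dusp5 and Dusp10 were lower as well, and 2 to 5 when single arrays were left out. For 4 months against naive lung the count of 1 was 0 with array weights and with only the groups compared. Counts of 0 became 1 with array weights for week 2 against day 4 in the lung, for week 2 against day 4 in the mLN and for mLN against lung at week 2. For week 2 against day 4 in the mLN, the count was also 1 with array medians centred (Dusp1 adjusted p = 0.0482), without dim genes (0.0407), with trend and robust options (0.0348) and when those 3 lung arrays were left out (0.0355), and 2 with the replicate block (Dusp1 and Dusp5). Leaving out single arrays gave 0 to 2 there and 0 to 1 for week 2 against day 4 in the lung. For mLN against lung at day 4 the count of 1 was 0 in a fit of the groups compared and 0 to 1 without single arrays. For mLN against lung at week 2, the count was 1 with the mean of probe sets (Dusp6, -0.71) and with the second Dusp6 probe set. Between tissues at week 2, 3 of 3 mLN and 2 of 3 lung arrays correlated best with the array of their own number. At day 4 it was 2 of 3 in each tissue. Between week 2 and day 4 it was 2 and 1 in the mLN and 0 and 0 in the lung. The numbers were not taken as pairs, but a pairing between tissues was not excluded. No called difference changed sign under the settings run. Centring moved the median of all genes to -0.10 for 4 months against week 2, where it was 0.02 before. The causes of these shifts were not tested, and signal over background could not be assessed from the deposited values.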

Other observations

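Among the atypical dual-specificity phosphatases, which are related enzymes that mostly lack the MAP kinase docking domain, Dusp18, Dusp11 and Dusp3 changed. Of 14 measured genes of this kind, 4 rose and 1 fell in the lung at day 4 against naive cells (3 rose and 1 fell with array weights). There 16.6% of all genes were called (7.34% with array weights). Dusp18 was at 1.10 ± 0.20 (SE, limma adjusted p = 0.00166), Dusp11, an RNA phosphatase, at 0.92 ± 0.20 (adjusted p = 0.00475) and Dusp26 at -0.88 ± 0.18 (adjusted p = 0.00344). At week 2 Dusp18 and Dusp11 rose by 0.93 ± 0.20 and 0.67 ± 0.20 and Dusp26 fell by 0.60 ± 0.18, and these calls were lost with array weights. There 9.62% of all genes were called. Dusp26 averaged 4.17 in naive and 4.22 in 4-month lung, the groups of narrower signal range, and 3.29 at day 4 and 3.57 at week 2. In the same order, Dusp11 averaged 7.65, 7.50, 8.57 and 8.32, and Dusp18 averaged 4.09, 4.54, 5.19 and 5.02. The part of signal range in the differences of these genes was not tested. Dusp3, a phosphatase of ERK and JNK, was lower in the mLN than in the lung, with differences of -1.43 ± 0.23 at day 4 (limma adjusted p = 0.00190) and -1.07 ± 0.23 at week 2 (adjusted p = 0.0398). At day 4, macrophage markers averaged 3.57 to 3.86 on the mLN arrays and 4.33 to 5.72 on the lung arrays, and their part in the difference of Dusp3 was not tested.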
